A study of Mus musculus with 46 samples.

Results

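The DNA replication machinery was followed here as 34 listed genes, in livers of mice after a single injection of carbon tetrachloride (CCl4). The genes were listed by known function in 4 subgroups. There were 12 genes for licensing and the helicase, 12 for polymerases and the fork, 5 for nucleotide supply and 5 for chromatin assembly. Each gene was read from the Affymetrix probe set that names only that gene and has the highest mean over all arrays. That gave values for 33 of the 34 genes, of 18193 genes measured in all. Of these, 31 passed a filter on low values and were tested, among 13239 genes tested. Chaf1a was not analysed here.

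The study profiled livers of male C57BL/6N mice aged 8 to 10 weeks on 46 arrays. Treated mice received 1.6 g/kg CCl4 in olive oil by intraperitoneal injection, and livers were taken after 2 h, 8 h, 1 d, 2 d, 4 d, 6 d, 8 d or 16 d. There were 5 arrays at each time and 6 at 16 d, and 5 arrays of controls taken at time 0. The design text describes the controls as untreated, with no oil injection, so effects of the vehicle and of handling are included in each difference from control. The treatment label of the control arrays reads CCL4 all the same. No genotype other than the strain is given, and no allele or transgene is named. The labels number the arrays without tying each to its own animal, so p-values measure the spread between arrays, which may be technical. Precision is limited by how many arrays there are, and a log2 fold change of 5 arrays against 5 had a standard error of 0.0966 in the median over genes. Arrays of a group correlated over all genes with r of 0.969 or more, except at 1 d, where arrays 1 and 2 stood apart and r fell to 0.947.

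DNA replication starts when ORC, Cdc6 and Cdt1 load the Mcm2-7 ring onto origins in G1, and Cdc45 and the GINS complex then turn the ring into the active helicase of S phase. Primase and the DNA polymerases copy both strands, held by the clamp Pcna, while ribonucleotide reductase and the thymidylate enzymes supply nucleotides and histone chaperones rebuild chromatin behind the fork. In the adult liver hepatocytes are mostly quiescent, and loss of tissue brings many of them back into the cell cycle. CCl4 harms the liver because the cytochrome Cyp2e1, made by pericentral hepatocytes, converts it to a reactive radical.

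Many replication genes are known targets of E2F factors, so the promoters of the members were searched for E2F-type sites. RefSeq promoters (build GRCm38.p6, from 250 bases before to 50 after a start) matched 29 of the 34 genes by symbol; Mcm4, Gins1, Gins2, Prim2 and Pole did not match. The letters TTTCGCGC, TTTGGCGC, TTTCCCGC and TTTGCCGC were sought on both strands. At least 1 of them lay in 12 of the 29 genes (41.4%), against 704 of 27025 genes (2.6%) in the whole table. In the bases before the start alone, the shares were 27.6% and 2.16%. The stretches shown hold matches of the licensing genes Mcm5, Mcm6 and Cdc6, of the clamp loader gene Rfc3 and of Uhrf1. The stretches next to the start of Rrm2 and Pcna are shown beside them because neither promoter holds a match. Capitals mark the matched letters, and each stretch is written 5′ to 3′ on the strand of its gene.
Mcm5: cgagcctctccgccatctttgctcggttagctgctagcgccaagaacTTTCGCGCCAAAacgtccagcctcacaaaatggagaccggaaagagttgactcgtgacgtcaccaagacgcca
Mcm6: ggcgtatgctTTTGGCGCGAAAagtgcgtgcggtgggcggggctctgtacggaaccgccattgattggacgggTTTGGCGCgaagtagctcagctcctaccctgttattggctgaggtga
Cdc6: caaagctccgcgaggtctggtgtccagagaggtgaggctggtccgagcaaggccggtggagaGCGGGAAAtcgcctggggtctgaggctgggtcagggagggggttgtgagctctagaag
Rfc3: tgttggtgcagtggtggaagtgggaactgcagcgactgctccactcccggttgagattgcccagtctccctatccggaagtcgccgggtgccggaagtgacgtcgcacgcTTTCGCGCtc
Uhrf1: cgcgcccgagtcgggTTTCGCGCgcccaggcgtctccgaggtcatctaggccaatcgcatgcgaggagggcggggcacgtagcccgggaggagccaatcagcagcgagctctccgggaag
Rrm2: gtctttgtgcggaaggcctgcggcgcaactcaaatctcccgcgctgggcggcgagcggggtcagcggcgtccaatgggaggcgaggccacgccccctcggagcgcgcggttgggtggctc
Pcna: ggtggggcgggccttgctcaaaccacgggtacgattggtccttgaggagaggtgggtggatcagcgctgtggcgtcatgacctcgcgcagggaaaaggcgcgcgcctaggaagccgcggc

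The stretches of Mcm5 (chr8:75109309-75109428, plus strand), Cdc6 (chr11:98907951-98908070, plus strand) and the second listed promoter of Uhrf1 (chr17:56304113-56304232, plus strand) run from base -200 to base -81 before the start. Those of Mcm6 (chr1:128359706-128359825, minus strand), Rfc3 (chr5:151651209-151651328, minus strand), Rrm2 (chr12:24708134-24708253, plus strand) and Pcna (chr2:132253181-132253300, minus strand) are the 120 bases just before the start. All lie upstream of the annotated start of their gene. In Mcm5 and in the upstream match of Mcm6, letters of opposite strands overlap by 4 bases, so that 2 matches form 1 run of capitals. Mcm6 has a further match closer to the start. Rfc3 has a further match, from base 1 to base 8 after the start, outside the stretch shown. The other members with a match were Mcm3, Mcm7, Cdt1, Pola1, Pold1, Lig1 and Dnmt1. The NF-Y box CCAAT lay in 62.1% of the 29 genes and 41.1% of all, and the cell cycle homology letters TTTGAA or TTCGAA in 20.7% and 21.7%. A match describes letters in this window and shows no binding.

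Replication genes rose together at 2 d after CCl4 and were back near control by 6 d. Of the 31 tested members, 26 were higher and 1 lower than control at 2 d, where 21.1% of all tested genes were called higher and 18.9% lower. The median log2 fold change of the members was 1.44 at 2 d, against -0.03 for all tested genes. The ribonucleotide reductase subunit Rrm2 and the helicase subunit Mcm5 rose most, 15.4-fold and 14.7-fold. In these whole-liver samples, more cells that make a transcript and more transcript per cell cannot be told apart. Of the members with an E2F-type match 11 were tested, and all 11 were higher at 2 d (median 1.38). Of those in the promoter table without a match 15 were tested and 11 were higher (median 1.49). The rest were Cdc45, Chaf1b, Fen1 and Mcm10. Other probe sets of Cdc45 (0.59) and Fen1 (2.86) were called higher, so these counts depend on the set used. Whether a match goes with the rise was not tested. Values are log2 RMA expression values. Changes are log2 fold changes ± standard errors from a limma fit over all 46 arrays, and a gene was called where its adjusted p was under 0.05.

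Each of the other times held fewer calls of members than 2 d. At 2 h, 2 members were higher and 4 lower (6.41% and 19.9% of all genes). At 8 h, 2 were higher and 8 lower (17.7% and 24.2%). At 1 d, 9 were higher and 3 lower (25% and 25.1%). Without arrays 1 and 2 at 1 d, 8 were higher and 3 lower, and Rpa2 was no longer called (0.29, adjusted p = 0.123). At 4 d, 4 were higher and 0 lower (4.74% and 2.21%), and 12 and 2 at an unadjusted p under 0.05. At 6 d and 8 d, 0 members were called in either direction by limma or any alternative fit (at an unadjusted p under 0.05, 1 higher and 1 lower at 6 d and 0 higher and 1 lower at 8 d), where 0.0227% and 0.068% of all genes were called higher and 0% and 0.0755% lower. At 16 d, 1 was higher and 0 lower (0.415% and 1.1%), and 3 and 4 at an unadjusted p under 0.05. The medians of the members were -0.11, -0.06, 0.18, 1.44, 0.25, -0.06, -0.05 and -0.09 from 2 h to 16 d, and those of all tested genes lay between -0.04 and -0.0023. Other settings moved some of these small counts, to between 5 and 13 lower at 8 h, to 14 higher at 1 d and to between 7 and 13 higher at 4 d.

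**Figure D1:**
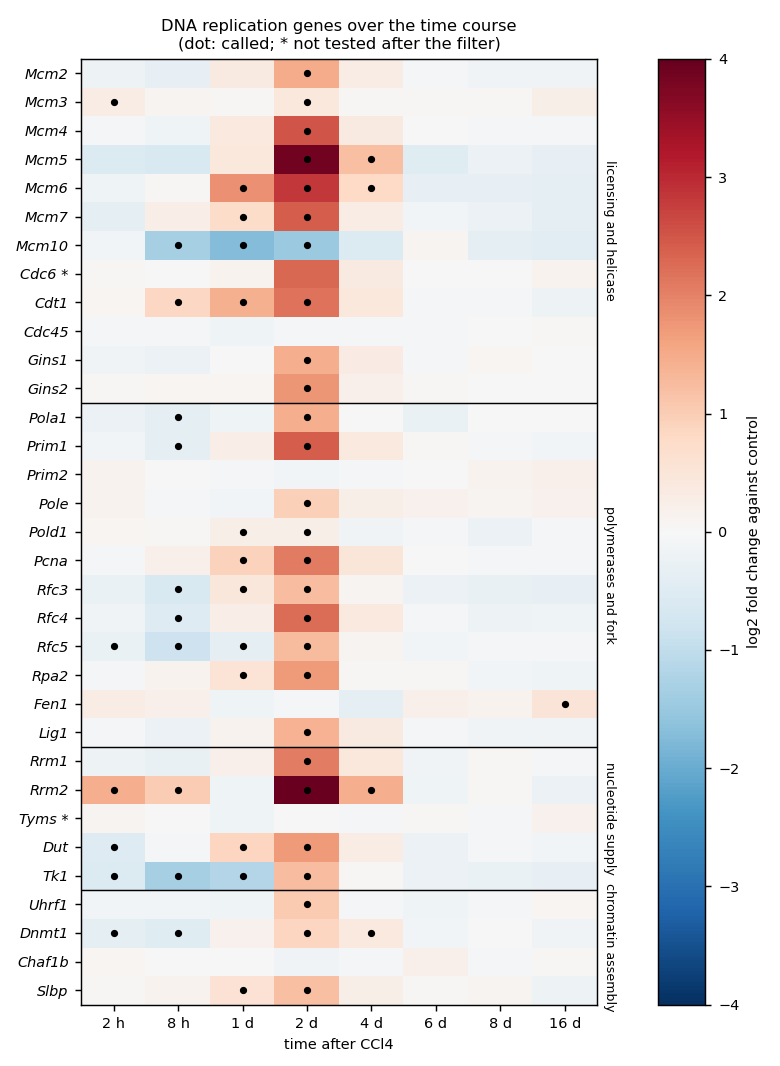
Log2 fold change against control (colour) of the 33 measured replication genes at 8 times after CCl4, 5 or 6 arrays a group, with dots on called changes and asterisks on the 2 genes left untested. The column at 2 d holds 26 members called higher and 1, Mcm10, called lower.

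The steps between neighbouring times gave the same shape. From 8 h to 1 d, 17 members were higher and 1 lower (20.8% and 10.9% of all genes), but 9 were higher without arrays 1 and 2 at 1 d. From 1 d to 2 d, 25 were higher and 0 lower in limma, also at an unadjusted p under 0.05 (17.4% and 15%). From 2 d to 4 d, 1 was higher and 26 lower (13.4% and 17.9%), with a median of -1.18. From 4 d to 6 d, 2 were higher and 10 lower (3.51% and 7.3%). The arrays at 2 d lay wholly above all control arrays for 24 of 31 members, against 15.7% of all genes. At 1 d this held for 8 of 31, against 16.7%. Without the 2 d arrays the filter would still pass 29 of the 31 members, of which 24 were higher at 2 d. Rfc4 and Uhrf1 passed only through their 2 d arrays.

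The licensing and helicase genes had 9 of 11 tested members higher and 1 lower at 2 d, with a median of 1.75. Mcm2, a subunit of the Mcm2-7 ring that opens the helix, stands for the subgroup. Its probe set 1434079_s_at read 5.8, 5.47, 5.27, 5.39 and 5.44 on the control arrays, 5.45, 5.07, 5.23, 5.34 and 5.26 at 2 h and 5.26, 5.21, 5.16, 5.0 and 5.17 at 8 h. Mcm2 stood at 6.63, 6.03, 5.47, 5.64 and 5.4 at 1 d, 6.42, 6.99, 6.16, 7.57 and 7.66 at 2 d and 5.95, 5.79, 5.7, 5.8 and 5.64 at 4 d. At 6 d it was at 5.46, 5.32, 5.52, 5.19 and 5.43, at 8 d at 5.19, 5.3, 5.43, 5.28 and 5.46 and at 16 d at 5.25, 5.24, 5.47, 5.12, 5.6 and 5.23. The 2 d arrays all lay above the controls with a wide spread, and the 8 h arrays all lay just below them. The change was 0.36 ± 0.18 (adjusted p = 0.0988) at 1 d, which was not called, and 1.49 ± 0.18 (adjusted p = 1.61e-08) at 2 d, a 2.8-fold rise. A second Mcm2 probe set with almost the same mean, 1448777_at, changed by 1.18 ± 0.23 at 1 d (adjusted p = 4.84e-05), where it was called higher, and by 2.71 ± 0.23 at 2 d.

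Mcm5, another subunit of the ring, rose most in the subgroup. Probe set 1436808_x_at gave 5.98, 4.88, 5.05, 4.76 and 5.25 on the control arrays, 4.68, 4.88, 4.53, 4.41 and 4.71 at 2 h and 4.35, 4.6, 4.82, 4.51 and 4.55 at 8 h. Mcm5 stood at 5.67, 7.03, 4.61, 5.45 and 5.3 at 1 d, 8.84, 8.84, 8.55, 9.25 and 9.8 at 2 d and 7.02, 5.95, 6.1, 6.03 and 6.8 at 4 d. The late groups had 4.52, 4.88, 5.04, 4.59 and 4.42 at 6 d, 5.03, 4.59, 5.31, 4.88 and 5.0 at 8 d and 4.94, 4.89, 4.82, 4.79, 4.67 and 4.96 at 16 d. The 2 d arrays lay above every other array, and 1 d array 2 stood above the other arrays of its group. Mcm5 changed by 0.43 ± 0.26 (adjusted p = 0.16) at 1 d, 3.87 ± 0.26 (adjusted p = 9.77e-16) at 2 d and 1.20 ± 0.26 (adjusted p = 0.00154) at 4 d, so it was still higher at 4 d.

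Mcm6 of the same ring was already called higher at 1 d. Probe set 1416251_at gave 6.82, 5.97, 5.65, 5.95 and 6.73 on the control arrays, 5.94, 6.05, 6.04, 6.12 and 6.08 at 2 h and 6.13, 6.36, 6.24, 6.2 and 6.45 at 8 h. Mcm6 stood at 7.58, 7.79, 8.47, 8.22 and 8.23 at 1 d, 8.73, 9.01, 8.58, 9.21 and 9.76 at 2 d and 7.39, 6.81, 6.93, 6.69 and 7.34 at 4 d. Later the values were 5.83, 5.89, 5.86, 6.02 and 5.88 at 6 d, 5.86, 6.14, 6.16, 5.46 and 5.83 at 8 d and 5.6, 5.82, 5.67, 5.9, 6.2 and 5.96 at 16 d. All 1 d arrays lay above all control arrays, and the 2 d arrays lay higher again. The change of Mcm6 was 1.83 ± 0.19 (adjusted p = 7.76e-11) at 1 d, 2.83 ± 0.19 (adjusted p = 8.24e-16) at 2 d and 0.81 ± 0.19 (adjusted p = 0.00327) at 4 d. A second Mcm6 set, 1438852_x_at, rose by 4.36 ± 0.23 at 2 d and was called lower at 2 h (-0.73 ± 0.23) and at 16 d (-0.93 ± 0.22).

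Of the remaining ring subunits, Mcm7 was higher at 1 d, by 0.73 ± 0.17, and at 2 d, by 2.42 ± 0.17. Mcm4 changed by 0.39 ± 0.19 at 1 d, which was not called, and rose by 2.51 ± 0.19 at 2 d. Mcm3 rose at 2 d by 0.42 ± 0.12 on the probe set used. Mcm3 was also called higher at 2 h, by 0.31 ± 0.12 (adjusted p = 0.0442), a call that 7 of the 10 fits with 1 array left out did not give.

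Cdt1, which brings the ring to origins, was called higher from 8 h. It was at 7.02, 6.78, 6.9, 6.45 and 6.71 in controls, 7.31, 7.39, 8.09, 7.09 and 8.08 at 8 h, 8.21, 7.55, 8.35, 8.36 and 8.45 at 1 d and 8.4, 8.94, 8.26, 9.38 and 9.7 at 2 d. The 8 h arrays were already all above the controls, and the highest values came at 2 d. The rise was 0.82 ± 0.19 (adjusted p = 0.00034) at 8 h, 1.41 ± 0.19 at 1 d and 2.17 ± 0.19 at 2 d.

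Cdc6, the loading ATPase, stayed below the filter and was not tested. Its values were 3.56, 3.5, 3.34, 3.09 and 3.55 in controls, 3.3, 3.66, 3.42, 3.43 and 3.92 at 1 d, 4.84, 5.69, 5.02, 6.35 and 6.63 at 2 d and 3.63, 3.85, 3.54, 4.0 and 3.82 at 4 d. The 2 d arrays lay above all arrays of every other group, with a difference of 2.30 ± 0.20 from control in the fit with no filter. Gins1 and Gins2, subunits of the GINS complex, rose at 2 d by 1.45 ± 0.11 and 1.75 ± 0.13 and were not called at 1 d (-0.01 ± 0.11 and 0.08 ± 0.13).

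Mcm10, which acts at the start of unwinding, went the other way on its brightest probe set. Probe set 1433408_a_at gave 9.62, 10.09, 10.21, 9.91 and 10.23 on the control arrays, 9.77, 9.73, 9.64, 10.02 and 10.32 at 2 h and 8.73, 9.36, 8.49, 8.55 and 8.25 at 8 h. Mcm10 stood at 6.91, 9.02, 7.87, 8.91 and 8.66 at 1 d, 8.39, 8.99, 8.45, 8.62 and 8.26 at 2 d and 9.21, 9.47, 9.37, 9.51 and 9.78 at 4 d. At 6 d it was at 10.32, 10.01, 10.48, 9.77 and 10.1, at 8 d at 9.79, 10.08, 8.97, 9.86 and 9.62 and at 16 d at 9.92, 9.71, 9.74, 9.0, 9.64 and 9.49. The arrays of 8 h, 1 d and 2 d were all below all control arrays, with 1 d array 1 the lowest, and from 4 d on the groups overlapped the controls. The change was -1.34 ± 0.25 (adjusted p = 2.26e-05) at 8 h, -1.74 ± 0.25 (adjusted p = 1.92e-07) at 1 d and -1.47 ± 0.25 (adjusted p = 8.35e-06) at 2 d. The other Mcm10 probe sets changed by -0.23 ± 0.09 (called lower) and 0.00 ± 0.10 (below the filter) at 2 d, so no probe set of Mcm10 was called higher then.

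Cdc45, the partner of the ring and GINS in the helicase, was not called at any time on its probe set. Probe set 1457838_at gave 7.12, 6.96, 7.09, 7.21 and 6.96 on the control arrays, 7.19, 7.07, 7.04, 7.05 and 6.78 at 2 h and 7.06, 6.99, 6.93, 6.96 and 7.11 at 8 h. Cdc45 stood at 6.84, 7.1, 6.82, 6.85 and 6.95 at 1 d, 6.84, 7.13, 6.86, 7.0 and 7.08 at 2 d and 7.0, 6.99, 7.06, 7.01 and 7.04 at 4 d. The late groups had 6.96, 7.11, 7.11, 7.1 and 6.88 at 6 d, 7.01, 7.03, 7.32, 7.0 and 6.95 at 8 d and 6.95, 7.11, 7.14, 7.24, 7.09 and 7.18 at 16 d. All groups overlapped. Cdc45 changed by -0.09 ± 0.07 at 2 d, while its other probe set, 1416575_at, rose by 0.59 ± 0.09.

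**Figure D2:**
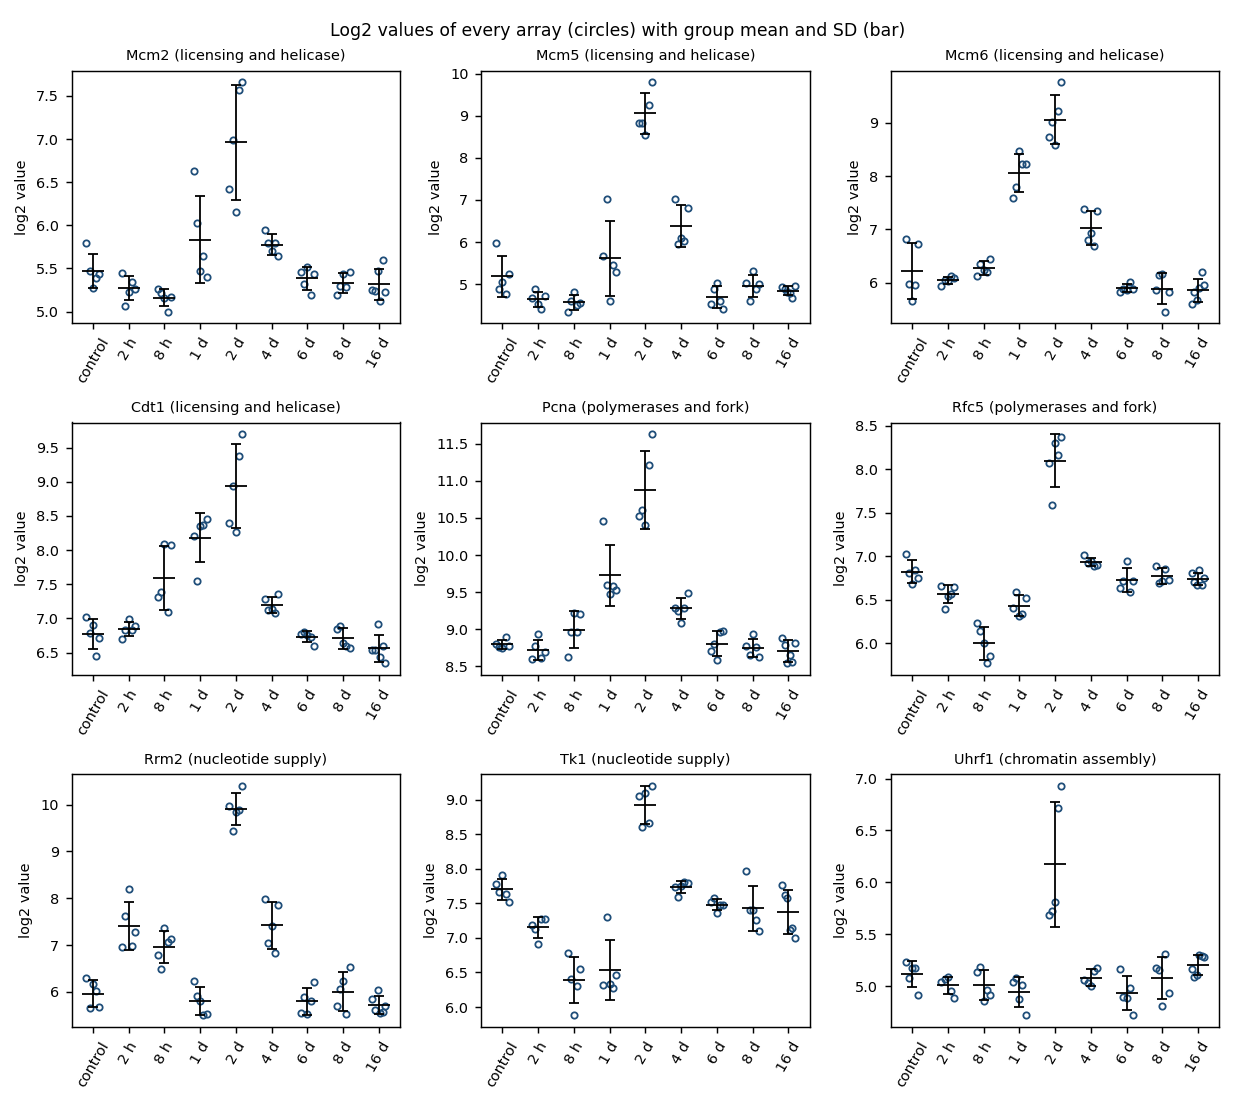
Log2 values (vertical axes) on each array of 9 replication genes in controls and at 8 times after CCl4, with circles for arrays and bars for the group mean and SD. Rrm2 is high at 2 h, 8 h, 2 d and 4 d, Tk1 and Rfc5 dip before 2 d, Cdt1 is high from 8 h and Mcm6 from 1 d.

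Polymerase and fork genes had 10 of 12 members higher at 2 d and the rest not called, with a median of 1.33. Pcna is the sliding clamp that holds the polymerases on DNA. Its probe set 1417947_at read 8.8, 8.76, 8.75, 8.9 and 8.77 on the control arrays, 8.6, 8.78, 8.93, 8.61 and 8.7 at 2 h and 8.62, 8.97, 9.22, 8.96 and 9.21 at 8 h. Pcna stood at 10.46, 9.59, 9.48, 9.58 and 9.53 at 1 d, 10.53, 10.61, 10.41, 11.21 and 11.63 at 2 d and 9.29, 9.25, 9.09, 9.28 and 9.49 at 4 d. Later the values were 8.71, 8.8, 8.59, 8.96 and 8.98 at 6 d, 8.77, 8.65, 8.93, 8.76 and 8.62 at 8 d and 8.88, 8.79, 8.54, 8.65, 8.56 and 8.82 at 16 d. All arrays at 1 d, 2 d and 4 d lay above all controls, with 1 d array 1 close to the 2 d arrays. Pcna rose by 0.93 ± 0.16 (adjusted p = 3.62e-06) at 1 d and 2.08 ± 0.16 (adjusted p = 3.74e-14) at 2 d, a 4.23-fold rise, and its change of 0.48 ± 0.16 at 4 d was not called (adjusted p = 0.054).

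The clamp loader genes of the list are Rfc3, Rfc4 and Rfc5. Rfc5 was at 7.03, 6.81, 6.68, 6.84 and 6.75 in controls, 6.23, 6.14, 6.01, 5.77 and 5.85 at 8 h, 6.41, 6.59, 6.31, 6.34 and 6.52 at 1 d and 8.07, 7.59, 8.3, 8.16 and 8.37 at 2 d. It lay below all controls at 8 h and at 1 d and above them at 2 d. The change of Rfc5 was -0.26 ± 0.10 at 2 h, a call lost in 7 of the 10 fits with 1 array left out, -0.82 ± 0.10 (adjusted p = 2.34e-09) at 8 h, -0.39 ± 0.10 at 1 d and 1.28 ± 0.10 at 2 d. Rfc3 fell by 0.62 at 8 h (adjusted p = 0.00158), was higher at 1 d by 0.45 ± 0.16 (not called without 1 d array 3, adjusted p = 0.0531) and at 2 d by 1.23 ± 0.16. Rfc4 fell by 0.50 at 8 h (adjusted p = 0.00264) and rose by 2.24 ± 0.14 at 2 d.

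Among the polymerases, Pola1, the catalytic subunit that extends primers, and Prim1, the primase that makes them, were both lower at 8 h, with changes of -0.39 ± 0.13 and -0.39 ± 0.15. The call of Prim1 at 8 h was lost in 6 of the 10 fits with 1 array left out. Both rose at 2 d, by 1.44 ± 0.13 and 2.43 ± 0.15. Pole, the leading strand polymerase, rose at 2 d by 0.95 ± 0.13. Pold1, the catalytic subunit of polymerase delta, moved least of the called members.

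Pold1 was at 6.13, 6.0, 5.96, 5.97 and 5.98 in controls, 6.14, 6.12, 6.28, 6.36 and 6.29 at 1 d and 6.14, 6.23, 5.98, 6.32 and 6.49 at 2 d. The 2 d arrays overlapped the controls. The change was 0.23 ± 0.08 (adjusted p = 0.0237) at 1 d and 0.22 ± 0.08 (adjusted p = 0.033) at 2 d. The call at 2 d was lost without 2 d array 4, without 2 d array 5 and without any one of control arrays 2, 3, 4 and 5 (adjusted p up to 0.149), and the call at 1 d without 1 d array 4 (0.0691). The second Pold1 probe set, 1456055_x_at, rose by 1.08 ± 0.12 at 2 d.

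Rpa2, a subunit of the complex that coats single-stranded DNA, was higher at 1 d by 0.55 ± 0.15 and at 2 d by 1.70 ± 0.15. Lig1, the ligase that seals Okazaki fragments, rose at 2 d by 1.38 ± 0.13. Prim2, the large primase subunit, was not called at any time on its brightest probe set. Probe set 1445474_at gave 6.5, 6.71, 6.67, 6.34 and 6.38 on the control arrays, 6.69, 6.47, 6.66, 6.76 and 6.66 at 2 h and 6.72, 6.59, 6.45, 6.52 and 6.45 at 8 h. Prim2 stood at 6.48, 6.4, 6.38, 6.57 and 6.41 at 1 d, 6.51, 6.47, 6.41, 6.13 and 6.53 at 2 d and 6.57, 6.6, 6.34, 6.51 and 6.31 at 4 d. At 6 d it was at 6.6, 6.59, 6.66, 6.53 and 6.28, at 8 d at 6.5, 6.63, 6.68, 6.6 and 6.88 and at 16 d at 6.71, 6.77, 6.87, 6.64, 6.83 and 6.5. Its groups overlapped and the change at 2 d was -0.11 ± 0.09. The other Prim2 probe sets, 1418035_a_at and 1418036_at, rose by 0.79 ± 0.10 and 1.35 ± 0.13.

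Fen1, the nuclease that trims Okazaki fragments, likewise gave opposite pictures on its probe sets. The brightest, 1436454_x_at, changed by -0.06 ± 0.15 at 2 d. The other, 1421731_a_at, went from between 4.74 and 5.09 in controls to between 7.04 and 8.28 at 2 d, a rise of 2.86 ± 0.20. On the sets used, the only call of a member at 16 d was Fen1 (0.52 ± 0.14, adjusted p = 0.0494). It was not given by 8 of the 11 fits with 1 array left out. In the limma fit of each probe set on its own, this Fen1 set was not called at 16 d. A second Mcm6 set, 1438852_x_at, was called lower there (-0.93 ± 0.22, adjusted p = 0.0232).

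All 4 tested genes of nucleotide supply were higher at 2 d, with a median of 1.88. Rrm2 is the small, cell cycle regulated subunit of ribonucleotide reductase. Its probe set 1434437_x_at read 6.29, 5.66, 6.16, 6.02 and 5.68 on the control arrays, 6.96, 7.62, 8.2, 6.98 and 7.27 at 2 h and 6.78, 6.48, 7.36, 7.07 and 7.14 at 8 h. Rrm2 stood at 6.23, 5.91, 5.81, 5.51 and 5.53 at 1 d, 9.97, 9.43, 9.84, 9.89 and 10.4 at 2 d and 7.98, 7.04, 7.4, 6.83 and 7.85 at 4 d. The late groups had 5.54, 5.89, 5.53, 5.81 and 6.21 at 6 d, 5.69, 6.06, 6.23, 5.52 and 6.54 at 8 d and 5.84, 5.62, 6.04, 5.54, 5.57 and 5.7 at 16 d. Rrm2 was high at 2 h and 8 h, overlapped the controls at 1 d, and reached its peak at 2 d. The change was 1.45 ± 0.22 (adjusted p = 4.22e-06) at 2 h, 1.00 ± 0.22 (adjusted p = 0.000202) at 8 h and -0.16 ± 0.22 (adjusted p = 0.55) at 1 d. It was 3.94 ± 0.22 (adjusted p = 8.48e-18) at 2 d and 1.46 ± 0.22 (adjusted p = 6.96e-06) at 4 d. The other Rrm2 probe sets, 1416120_at and 1448226_at, rose by 2.25 ± 0.13 and 3.52 ± 0.19 at 2 d, and at 2 h they changed by 0.41 ± 0.13 and 1.04 ± 0.19. Both of these probe sets were called higher at 2 h as well. A probe set ending in _x_at, as the brightest one does, can share probes with other sequences.

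Tk1, the cytosolic thymidine kinase, dipped before it rose. Probe set 1416258_at gave 7.78, 7.66, 7.91, 7.64 and 7.52 on the control arrays, 7.19, 7.13, 6.91, 7.27 and 7.28 at 2 h and 6.78, 6.4, 5.88, 6.31 and 6.55 at 8 h. Tk1 stood at 6.32, 7.3, 6.33, 6.27 and 6.46 at 1 d, 9.05, 8.61, 9.1, 8.66 and 9.2 at 2 d and 7.73, 7.59, 7.75, 7.81 and 7.79 at 4 d. Later the values were 7.52, 7.57, 7.36, 7.48 and 7.48 at 6 d, 7.97, 7.41, 7.41, 7.26 and 7.1 at 8 d and 7.77, 7.62, 7.58, 7.12, 7.15 and 7.0 at 16 d. The arrays of 2 h, 8 h and 1 d were all below all controls, and those of 2 d all above. Tk1 changed by -0.55 ± 0.16 (adjusted p = 0.011) at 2 h, -1.32 ± 0.16 (adjusted p = 9.11e-09) at 8 h, -1.17 ± 0.16 (adjusted p = 1.03e-07) at 1 d and 1.22 ± 0.16 (adjusted p = 8.02e-08) at 2 d. Its largest change in size was thus the fall at 8 h.

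Rrm1, the large reductase subunit, changed by 0.20 ± 0.14 at 1 d, which was not called, and rose by 2.05 ± 0.14 at 2 d. Dut, which removes dUTP, was lower at 2 h, with a change of -0.50 ± 0.15, and higher at 1 d by 0.85 ± 0.15 and at 2 d by 1.71 ± 0.15. Tyms, thymidylate synthase, was below the filter on all 4 of its probe sets and was not tested. The brightest, 1427810_at, gave 3.83, 3.74, 3.85, 3.43 and 3.61 on the control arrays, 3.99, 3.73, 3.69, 3.94 and 3.69 at 2 h and 3.61, 3.73, 3.64, 3.73 and 3.9 at 8 h. Tyms stood at 3.5, 3.65, 3.63, 3.37 and 3.49 at 1 d, 3.61, 3.69, 3.94, 3.47 and 3.68 at 2 d and 3.53, 3.65, 3.78, 3.84 and 3.33 at 4 d. At 6 d it was at 3.64, 3.82, 3.9, 3.78 and 3.51, at 8 d at 3.48, 3.89, 3.8, 3.58 and 3.52 and at 16 d at 3.93, 3.99, 3.9, 3.63, 4.1 and 3.58. On this set the groups overlapped at every time. Of the other sets, 1442192_at differed from control by 0.52 ± 0.09, 1438690_at by 0.34 ± 0.09 and 1427811_at by -0.16 ± 0.08 at 2 d in the fit with no filter.

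In the chromatin assembly group 3 of 4 tested genes were higher at 2 d, with a median of 0.95. Uhrf1 reads hemimethylated DNA behind the fork and recruits Dnmt1. Its probe set 1415811_at read 5.23, 5.08, 5.18, 5.18 and 4.92 on the control arrays, 5.04, 5.07, 5.09, 4.95 and 4.89 at 2 h and 5.14, 5.19, 4.86, 4.96 and 4.92 at 8 h. Uhrf1 stood at 5.04, 5.08, 4.88, 5.01 and 4.72 at 1 d, 5.69, 5.72, 5.81, 6.72 and 6.93 at 2 d and 5.06, 5.03, 5.0, 5.15 and 5.18 at 4 d. The late groups had 5.17, 4.9, 4.89, 4.98 and 4.72 at 6 d, 5.18, 5.16, 4.81, 5.31 and 4.93 at 8 d and 5.17, 5.09, 5.11, 5.3, 5.29 and 5.28 at 16 d. All 2 d arrays lay above all controls, every other group overlapped them, and arrays 4 and 5 at 2 d stood apart above the other 3. Uhrf1 rose by 1.06 ± 0.14 (adjusted p = 1.19e-07) at 2 d. The dimmer probe set 1415810_at rose by 3.35 ± 0.20.

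Dnmt1, which copies DNA methylation to the new strand, was lower at 2 h, with a change of -0.36 ± 0.11 (not called without 2 h array 4, adjusted p = 0.0582), and at 8 h, with a change of -0.48 ± 0.11. It was higher at 2 d by 0.84 ± 0.11 and at 4 d by 0.38 ± 0.11 (adjusted p = 0.0208), and the call at 4 d was lost without 4 d array 1, without 4 d array 5 or without control array 3 (adjusted p up to 0.0839). Slbp, which binds the stem-loop of histone mRNAs, rose by 0.57 ± 0.14 at 1 d and 1.22 ± 0.14 at 2 d.

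Chaf1b is a subunit of the histone chaperone CAF-1. Probe set 1431275_at gave 6.07, 6.14, 5.95, 6.14 and 6.02 on the control arrays, 6.16, 5.95, 6.14, 6.17 and 6.26 at 2 h and 6.05, 5.99, 5.95, 6.06 and 6.13 at 8 h. Chaf1b stood at 5.95, 6.07, 6.09, 6.1 and 6.09 at 1 d, 5.93, 6.12, 5.92, 5.62 and 6.02 at 2 d and 5.98, 5.93, 6.02, 6.15 and 6.04 at 4 d. Later the values were 6.34, 6.41, 6.16, 6.3 and 6.15 at 6 d, 6.08, 6.15, 5.77, 5.98 and 6.06 at 8 d and 6.12, 6.06, 6.21, 6.14, 6.13 and 5.97 at 16 d. The groups overlapped at 2 d, where the change was -0.14 ± 0.07. The other Chaf1b probe set, 1423877_at, was below the filter and differed by 0.91 ± 0.14 at 2 d in the fit with no filter.

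The members were also read from every probe set that names 1 of them. There were 76 such probe sets, of which 58 passed the filter, 52 were called higher and 2 lower at 2 d, against 20.8% higher and 17.5% lower of the 21483 probe sets tested. At least 1 probe set was higher for 29 of the 33 members. For Cdc45, Prim2 and Fen1 the brightest set was not called and another was higher. Among sets that passed the filter, Mcm3 had a wide gap, as its set 1420028_s_at rose by 2.79 ± 0.21 against 0.42 ± 0.12 on the set used. This reading was added after the data were seen.

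**Figure D3:**
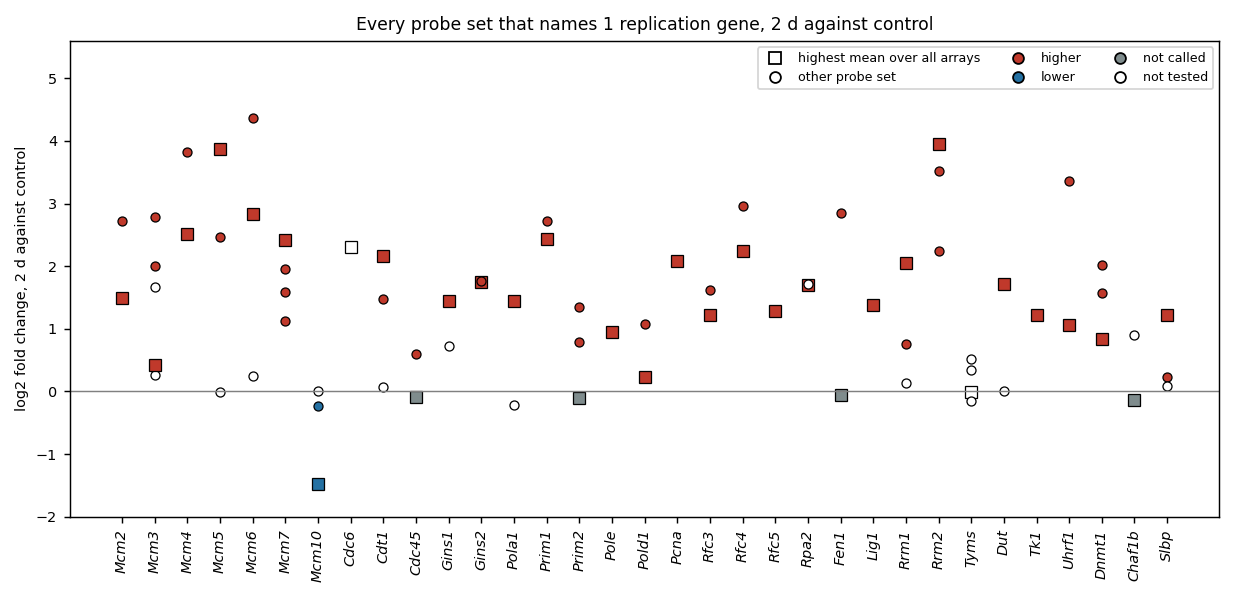
Log2 fold change at 2 d against control (vertical axis) of the 76 probe sets that name a single replication gene, with squares for the brightest set of a gene and colour for the call. Most sets lie above 0, and Fen1, Prim2, Cdc45 and Uhrf1 have sets that differ widely.

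The subgroups were compared for timing. At 1 d, 9 of the 31 members were higher, where 25% of all genes were, so on the probe sets used this share was near the background. The count depends on the set, as 14 members were higher with the mean of all probe sets. Other sets of Mcm2 (1.18), Mcm4 (1.19) and Fen1 (1.77) were called higher at 1 d, though the sets used were not. The same held for Mcm3 (1420028_s_at, 0.66), Prim1 (1449061_a_at, 0.50), Rfc4 (1438161_s_at, 0.45) and Dnmt1 (1435122_x_at, 0.90, and 1447877_x_at, 0.59). The Mcm7 set 1416030_a_at (0.05) and the Slbp set 1430058_at (0.045) were not called at 1 d, though the sets used were. The Mcm7 sets 1416031_s_at (0.38) and 1439269_x_at (0.53) were called higher. Mcm6, Mcm7 and Cdt1 of licensing, Pcna, Rfc3, Rpa2 and Pold1 of the fork, Dut of nucleotide supply and Slbp of chromatin assembly were already higher at 1 d. Mcm10, Rfc5 and Tk1 were lower at 1 d. For the 26 members higher at 2 d, the change at 1 d was a median 12% of that at 2 d on the log2 scale. The medians were 15.7% for licensing, 11% for the fork, 2.83% for nucleotide supply and 21.5% for chromatin assembly, and the ranges overlapped widely. Over all 2799 genes higher at 2 d the median was 81.6%. These shares are a description on the probe sets used, since the members were taken for being higher at 2 d.

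At 4 d the members kept a median 17.4% of their change at 2 d, against 24.0% over all genes higher at 2 d. On the sets used, only Mcm5, Mcm6, Rrm2 and Dnmt1 were still called higher at 4 d. Other sets of Mcm4 (1.15), Uhrf1 (0.79), Rfc4 (0.51) and Rrm1 (0.35) were also called higher then. Control means of the first 3 of these sets (4.73, 4.23 and 3.81) lay below the filter value. Other sets of Mcm5 (0.41) and Dnmt1 (0.58 and 0.30) were not called at 4 d.

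**Figure D4:**
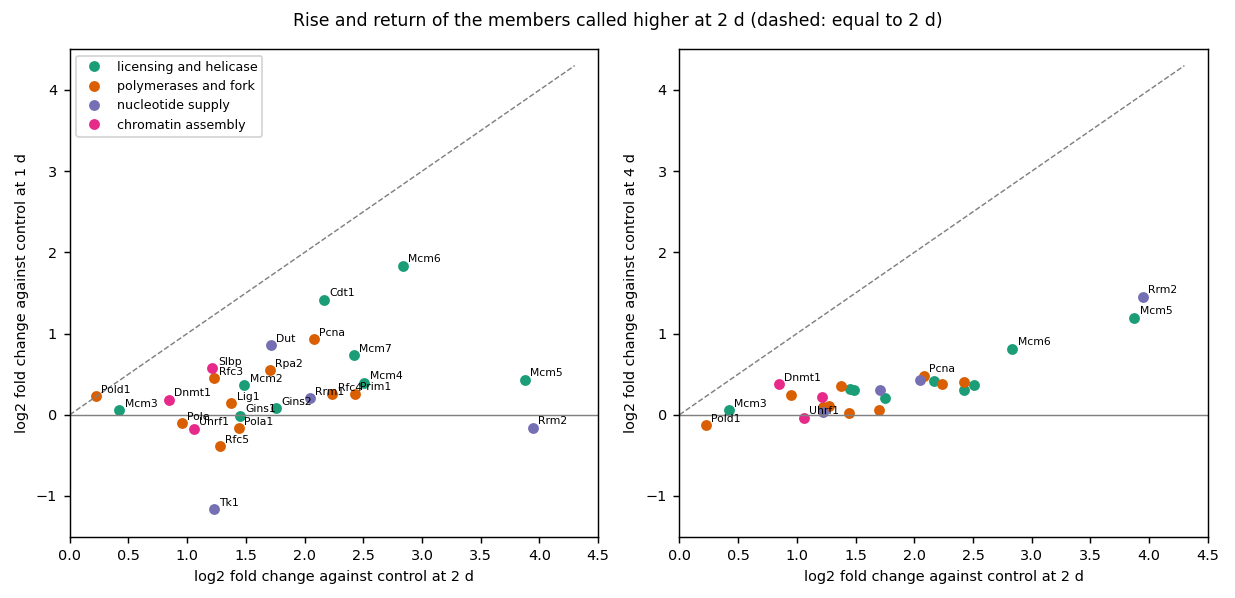
Log2 fold change at 1 d (left, vertical axis) and at 4 d (right) against that at 2 d (horizontal axes) for the 26 members called higher at 2 d, coloured by subgroup. Points below the dashed line changed less than at 2 d, Pold1 lies on it at 1 d, and Tk1 and Rfc5 are called lower at 1 d.

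Single members of the 4 subgroups were compared directly, by the difference of their log2 values on each array between neighbouring times (two-sided exact permutation test, 5 arrays against 5, smallest possible p 0.00794, adjusted over 24 tests). Of the 24 differences, 15 passed the threshold, counting those of Uhrf1 at steps to or from 2 d, which are a description only. Rrm2 differed from Mcm2, Pcna and Uhrf1 at all 4 steps from 8 h to 6 d. From 1 d to 2 d, Mcm2 minus Rrm2 changed by -2.98 and Pcna minus Rrm2 by -2.96, so Rrm2 rose more than each (adjusted p = 0.0136 each, exact permutation test). Rrm2 minus Uhrf1 changed by 2.88 at that step. Mcm2 and Pcna rose more than Uhrf1 from 8 h to 1 d, by 0.74 and 0.80 (adjusted p = 0.0136 each, exact permutation test). Uhrf1 passed the filter only through its 2 d arrays, and its set lay below the filter value on all other arrays. Its steps outside 2 d are thus read from low values, and its differences at steps to or from 2 d are a description. Described in this way, Pcna fell by 0.51 more than Uhrf1 from 2 d to 4 d on the sets used. Mcm2 and Pcna did not differ past the threshold at any step, with differences between -0.06 and 0.42. With the mean of all probe sets of a gene, Rrm2 no longer differed past the threshold from the other members from 2 d to 4 d, nor Pcna from Uhrf1 from 8 h to 1 d (0.59), and Pcna minus Uhrf1 from 2 d to 4 d was 0.23. Under that rule Mcm2 minus Uhrf1 (-0.83) and Pcna minus Uhrf1 (-1.01) passed from 1 d to 2 d, with Uhrf1 rising more than each. With no _x_at or _s_at sets, Mcm2 minus Rrm2 no longer passed from 2 d to 4 d (0.37) or from 4 d to 6 d (0.78).

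**Figure D5:**
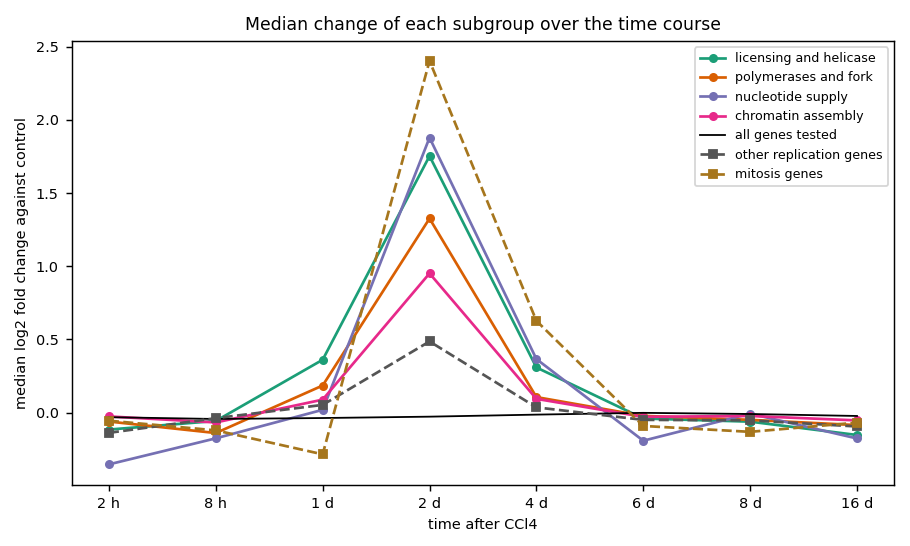
Median log2 fold change against control (vertical axis) over the tested genes of each subgroup, of the other replication genes, of mitosis genes and of all 13239 tested genes at 8 times after CCl4. All subgroups peak at 2 d, between 0.95 for chromatin assembly and 1.88 for nucleotide supply.

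Other genes of the pathway rose as well. Of 55 tested, 39 were higher and 3 lower at 2 d (21.1% and 18.9% of all genes), with a median of 0.49. Of the other licensing genes, 9 of 17 were higher and 2 lower, with the largest rises in Dbf4, the activator of the Cdc7 kinase (2.52 ± 0.23), Topbp1 (2.02 ± 0.15) and Orc6 (1.51 ± 0.14), an ORC subunit. Orc1 and Cdc7 were lower, with changes of -0.25 ± 0.07 and -0.28 ± 0.08. Of the other fork genes 17 of 18 were higher, led by Tipin (1.74 ± 0.16), the polymerase epsilon subunit Pole2 (1.42 ± 0.17) and Rpa1 (1.28 ± 0.10). The smallest changes there were those of Clspn (0.23 ± 0.09) and of Dna2 (0.30 ± 0.14, not called).

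Of the other nucleotide genes 4 of 10 were higher and 1 lower at 2 d (21.1% and 18.9% of all genes). The deoxycytidine kinase Dck rose by 2.42 ± 0.22, the thymidylate kinase Dtymk by 1.55 ± 0.14 and the CTP synthase Ctps by 0.63 ± 0.14. The dNTP hydrolase Samhd1 changed by -0.20 ± 0.09, which was not called, and the mitochondrial thymidine kinase Tk2 was lower, with a change of -0.27 ± 0.11. Of the other chromatin genes 9 of 10 were higher, led by the histone acetyltransferase Hat1 (2.03 ± 0.14), the histone chaperone Nasp (0.98 ± 0.12) and the chaperone Asf1b (0.84 ± 0.10). Tonsl changed by 0.23 ± 0.09 and Rbbp4 by -0.07 ± 0.09, the latter not called.

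Regulators of the entry into S phase had 10 of 11 genes higher at 2 d and 4 of 11 higher at both 8 h and 1 d. The shares of all genes called higher were 21.1% at 2 d, 17.7% at 8 h and 25% at 1 d. The cyclin Ccne2 rose by 1.27 ± 0.21 at 1 d and 2.49 ± 0.21 at 2 d, and Cks1b, a binding partner of cyclin-dependent kinases, by 1.92 ± 0.24 and 2.31 ± 0.24. E2f8, a repressor of the E2F family, rose at 2 d by 1.49 ± 0.20. The smallest changes were those of E2f7 (0.27 ± 0.11) and the ubiquitin ligase subunit Skp2 (-0.04 ± 0.08, not called).

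Mitosis genes had 14 of 16 higher and 1 lower at 2 d (21.1% and 18.9% of all genes), with a median of 2.40. At 1 d, 2 of 16 were lower (25.1% of all genes). At 4 d, 9 of 16 were still higher (4.74% of all genes). The survivin gene Birc5 rose by 4.54 ± 0.27 at 2 d, the proliferation marker Mki67 by 4.21 ± 0.19 and the topoisomerase Top2a by 3.37 ± 0.19. Tpx2 changed by -0.08 ± 0.11, not called, and Cenpf was lower, with a change of -0.23 ± 0.08. Whether these lists differ from the members in timing was not tested.

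Other measures moved with the rise. Of the cell type markers tested, 5 of 8 for monocyte-derived macrophages and 5 of 9 for stellate cells were higher at 2 d. Of the Kupffer cell markers 3 of 8 were higher, and of the hepatocyte markers 3 of 9 were lower. Among all tested genes 21.1% were higher and 18.9% lower then. The mean level of the macrophage markers was between 5.8 and 5.91 on control arrays and between 6.43 and 7.64 at 2 d. That of the stellate cell markers was between 6.89 and 7.17 in controls and between 7.45 and 8.23 at 2 d, of the Kupffer cell markers between 8.02 and 8.22 and between 8.18 and 9.28, and of the hepatocyte markers between 13.35 and 13.43 and between 12.7 and 13.07. The hepatocyte markers did not move alike. Albumin was near 14.8 in both groups, and the mean of Fgb went from 13.55 in controls to 13.78 at 2 d. The mean of Cyp2e1 went from 14.04 to 11.79, of Tat from 11.75 to 10.04 and of Cps1 from 13.64 to 13.28. The T and NK cell markers Cd3d and Cd3g were below the median of all values on every array. Of the neutrophil markers 2 of 6 were higher and 1 lower at 2 d, and of the endothelial markers 1 of 6 was higher and 1 lower. These counts lay near the shares of all genes. Both tested erythroid markers and 1 of 3 B cell markers were lower. The tested markers of T and NK cells and of cholangiocytes were not called. The part of these cells in the rise of the replication genes was not tested.

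One array stood out at 2 d. Array 5 was highest of its group for 25 of the 26 members that rose. Arrays 4 and 5 also had the highest mean macrophage marker levels at 2 d, 7.6 and 7.64, against 6.43 to 6.65 on the other 3 arrays. They were highest as well for the Kupffer (8.74 and 9.28), stellate (8.04 and 8.23), endothelial (7.59 and 7.68), neutrophil and B cell markers. For the hepatocyte (12.7 and 12.74) and erythroid markers they were lowest. The T and NK cell and the cholangiocyte markers showed no such order. A link of these levels to the replication values was not tested. Without array 5, 23 members were called higher at 2 d. Pold1 was then no longer called, and Rfc4 and Uhrf1 no longer passed the filter, as without any other 2 d array. The rise of Rrm2 was then 3.82 and that of Pcna 1.89. The control value of Gapdh at the 3 prime end minus that at the 5 prime end, a sign of RNA integrity, was between 0.161 and 0.236 at 2 d and between 0.275 and 0.433 in controls. With it as a covariate 25 members were higher at 2 d.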

How the data were processed

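RNA from mouse livers was measured on 46 Affymetrix mouse genome arrays. The log2 expression values were deposited by the authors. Per the submitters' processing notes they come from RMA in oligo 1.52.0. This method quantile-normalizes arrays, which reduces shifts shared by most genes. The share of all genes called still depended on the scaling. At 2 d, 2799 of 13239 genes were higher in the deposited values. After a further quantile normalization 2247 of 13212 were, and 3128 of 13212 after a shift of each array to the same median. In both, 26 members were higher. Of 45101 probe sets, 64 were controls, 34945 named 1 gene, 932 several and 9160 none here, and 0 per-sample columns were left unused. Symbols were updated through Entrez IDs.

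Each gene was read from the probe set naming only it with the highest mean over all arrays. It was tested where 5 or more arrays lay above 5.55823, the median over the whole table. Group means of the 9 groups were fitted in limma 3.58.1 (R 4.3.3; lmFit, eBayes, 37 residual degrees of freedom). Tests covered 8 times against control and 7 steps between times, with Benjamini-Hochberg adjustment over 13239 genes in each contrast. Single genes were compared by exact permutation in Python 3.11.15 (pandas 2.3.3), and plots were drawn with matplotlib 3.10.9. The tests were checked on simulated data.

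Members and lists were chosen with earlier results of these data known. All 34 members are named. Array values are given for Mcm2, Pcna, Rrm2 and Uhrf1, for the 3 largest and the 3 smallest changes at 2 d, and for members whose largest change opposed the majority. The array values of further members were added after their values were seen. Of each context list the 3 largest and 2 smallest changes at 2 d are named, and a member is named where leaving out 1 array ended its call at 2 d. Alternatives changed the filter, the scaling, the rule for probe sets, the variance model, the arrays in the fit and their weights, or added a replicate block or an RNA integrity covariate, or left arrays out. The fit of each probe set on its own was added after seeing the data.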

Additional observations from a re-analysis of the deposited data

Results flagged for a closer look

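In 18 of 297 groups of a member's arrays (6.06%), 1 array lay far from the others by Dixon's test, where chance gives about 1 in 20. At 2 d, array 5 was far above the others for Gins1 (8.49), Pole (7.55), Prim1 (8.96) and Rrm1 (9.11). At 1 d, array 1 was far above for the clamp gene Pcna (10.46) and for Slbp (8.64) and below for Chaf1b (5.95). At 1 d, array 2 was far above for Tk1 (7.30) and below for Cdt1 (7.55). At 2 h, array 4 was far below for Dnmt1 (6.19) and Rrm1 (6.08). Control array 1 was far above for Lig1 (6.75) and Pold1 (6.13). Control array 1 was also the highest control for 16 of the 26 members that rose at 2 d. At 16 d, array 2 was far above for Pola1 (5.94) and below for Pold1 (5.6). Single values apart from their group were Mcm6 on 6 d array 4 (6.02, high), Cdc6 on 8 d array 1 (2.86, low) and Cdc45 on 8 d array 3 (7.32, high).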

How the results depend on the processing

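At 2 d, 26 members were called higher, and the alternatives gave 19 (of 22 tested, stricter filter) to 29 (mean of all probe sets). Leaving out 1 array gave 23 to 26. The following counts moved by more than 1.5 times, and the cause was not tested except where fewer genes or arrays entered. At 2 h, 1 member was higher after a shift of each array to the same median, with no filter, with a stricter filter, with the mean of all probe sets and with the Gapdh covariate, and 1 was lower with that covariate. At 8 h, 13 were lower with only the 2 groups compared in the fit and 5 with the Gapdh covariate. At 1 d, 14 were higher with the mean of all probe sets. At 4 d, 7 were higher with the mean of all probe sets, 13 with only the 2 groups and 11 with array weights, and 1 and 2 were lower with the latter pair. At 16 d, 0 were higher by limma with no filter, the mean of all probe sets, no _x_at or _s_at sets, only the 2 groups, trend and robust settings, or the replicate block (3 at an unadjusted p under 0.05 in the fit as reported). From 8 h to 1 d, 9 were higher without arrays 1 and 2 at 1 d, and 2 were lower after quantile normalization, with a stricter filter and with only the 2 groups. From 4 d to 6 d, 1 was higher with a stricter filter, 0 with the mean of all probe sets (3 at an unadjusted p under 0.05 as reported) and 1 with no _x_at or _s_at sets, and 16 were lower with only the 2 groups. Leaving out 1 array gave 1 to 2 higher and 2 to 4 lower at 2 h, 3 to 5 lower at 1 d, 1 to 2 lower at 2 d, 0 to 1 lower at 4 d and 0 to 1 higher at 16 d. For the steps it gave 1 to 2 lower from 8 h to 1 d, and 1 to 2 higher and 6 to 10 lower from 4 d to 6 d.

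Signs turned under another probe set rule, which reads other probes. Averaging all probe sets of a gene gave changes against control of -0.21 for Prim2 at 8 h, 0.80 for Fen1 at 1 d, and 0.25 for Cdc45, 0.68 for Prim2, 1.40 for Fen1 and 0.38 for Chaf1b at 2 d. The steps were 0.46 for Fen1 from 2 h to 8 h, then 0.32 for Mcm3, 0.25 for Prim2 and 0.34 for Fen1 to 1 d, 0.64 for Prim2 and 0.32 for Chaf1b to 2 d, -0.30 for Cdc45, -0.59 for Prim2 and -0.31 for Chaf1b to 4 d, and -0.019 for Fen1 to 6 d. With no _x_at or _s_at sets, Fen1 differed from control by 1.77 (1 d), 2.86 (2 d) and -0.12 (16 d), and changed by 1.02 from 2 h to 8 h, 1.04 to 1 d and -0.59 from 4 d to 6 d. Differences between members also moved. With the mean of all probe sets, Mcm2 minus Rrm2 (0.52), Pcna minus Rrm2 (0.54) and Rrm2 minus Uhrf1 (-0.31) from 2 d to 4 d and Pcna minus Uhrf1 from 8 h to 1 d (0.59) no longer passed. Mcm2 minus Uhrf1 (-0.83) and Pcna minus Uhrf1 (-1.01) from 1 d to 2 d now did, and Pcna minus Uhrf1 from 2 d to 4 d turned to 0.23. With no _x_at or _s_at sets, Mcm2 minus Rrm2 no longer passed from 2 d to 4 d (0.37) and from 4 d to 6 d (0.78), and Mcm2 minus Uhrf1 passed at both steps (-0.97 and -0.54). Without arrays 1 and 2 at 1 d, Pcna minus Uhrf1 (0.68) and Rrm2 minus Uhrf1 (-1.20) from 8 h to 1 d reached an adjusted p of 0.0571 (exact permutation). Leaving out 1 array gave 0.34 to 0.51 for Mcm2 minus Pcna from 2 d to 4 d and -0.42 to -0.23 for Pcna minus Uhrf1 from 4 d to 6 d.

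The labels do not say whether replicate numbers pair arrays of different groups. Of 180 pairs of arrays with the same number in different groups, 40 had deviations correlated above 0.1 (median 0.009). With the replicate number as a block, 26 members were higher at 2 d, and the call at 16 d was lost. The low signal of the probe sets of Cdc6 and Tyms, below the filter, limits what can be said of these genes.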
